A study of Mus musculus with 7 samples.

Results

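Genes of B cells and of major histocompatibility complex (MHC) class II antigen presentation were followed in RNA from isolated mouse hepatocytes. The set was chosen by gene symbol and holds 10 genes, of which 9 were among the 12151 genes of the table: Ighm, Igkc, Cd79a and Cd79b of the B cell receptor, and Cd74, H2-Aa, H2-Ab1, H2-Eb1 and Ciita of the MHC class II pathway. Ms4a1, which encodes the B cell surface protein CD20, was not analysed here. The libraries were 3 wild-type (WT, treatment label "non") and 4 labelled ALAS1/2-KO (treatment label tamoxifen). ALAS1 and ALAS2 are the enzymes that start heme synthesis. The ALAS1/2-KO animals carried an Alas1 allele whose exons 4 to 5 are removed by an inducible Cre, and Alas2 was lowered by injected GalNAc-conjugated small interfering RNA, which hepatocytes take up. Allele, tamoxifen and siRNA therefore cannot be told apart. The sources used here do not give the Cre driver, strain, age or number of animals per library.

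B cells recognise antigen through a surface immunoglobulin, whose heavy and light chains signal through the Cd79a and Cd79b pair. B cells, dendritic cells and macrophages such as the Kupffer cells of the liver display peptides on MHC class II, a dimer of an alpha and a beta chain that is assembled around the invariant chain Cd74. Ciita is the coactivator that switches these genes on, through factors bound to a conserved promoter module called the X and Y boxes. Hepatocytes are not known for either set, so in such a preparation this RNA is usually attributed to other liver or blood cells that remain. In bulk RNA, fewer cells of a type and less RNA per cell cannot be told apart.

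The promoters of H2-Aa and H2-Eb1 are shown because these genes belong to the MHC class II set, whose members moved together from library to library. They come from RefSeq, build GRCm38.p6, and run from 250 bases before to 50 bases after the annotated start, with H2-Aa on the minus strand (chr17:34287774-34288073) and H2-Eb1 on the plus strand (chr17:34305617-34305916). Of the members, 3 matched the promoter table, the other being Cd79a. Capitals mark the motifs searched on both strands.
H2-Aa: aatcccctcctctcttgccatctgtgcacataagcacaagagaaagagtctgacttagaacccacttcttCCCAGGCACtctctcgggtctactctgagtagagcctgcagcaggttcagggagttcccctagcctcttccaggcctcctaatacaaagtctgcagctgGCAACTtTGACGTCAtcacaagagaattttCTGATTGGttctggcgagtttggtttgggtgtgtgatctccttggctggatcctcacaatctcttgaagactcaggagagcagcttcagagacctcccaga
H2-Eb1: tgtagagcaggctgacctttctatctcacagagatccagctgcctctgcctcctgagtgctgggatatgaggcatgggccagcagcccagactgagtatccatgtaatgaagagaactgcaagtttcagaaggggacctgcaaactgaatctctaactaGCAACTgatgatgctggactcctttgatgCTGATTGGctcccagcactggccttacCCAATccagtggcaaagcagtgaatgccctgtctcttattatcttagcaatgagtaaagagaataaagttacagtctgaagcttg

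The Y box core CCAAT, read on the opposite strand as ATTGG, lay at position -48 in H2-Aa and -59 in H2-Eb1, counted from the start site. CCAAT on either strand was present in 37.4% of 32851 promoters of that length, so its presence sets few genes apart. The longer CTGATTGG, which overlaps that core and was picked after the sequences were read, was present in both genes and in 4.10% of promoters. GCAACT, picked in the same way, stood 24 bases before it in H2-Aa and 23 bases before it in H2-Eb1 and was present in 10.9% of promoters. TGACGTCA, a cyclic AMP response element, followed GCAACT in H2-Aa and was found in 1.79% of promoters. CCNAGNNAC, the start of an X box consensus, matched once in H2-Aa, at position -180 and outside this module, against 17.3% of promoters. None of these motifs was found in the 300 bases of Cd79a.

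Depth and marker levels of other cell types differed between libraries. Reads recovered from the value steps ran from 22916097 to 34048680 per library, and 1 read was worth 0.0293 to 0.0522 CPM, the read count scaled to a common library size. The targeted Alas2 stood at 16.9, 10.3 and 6.65 CPM in WT replicates 1 to 3 and between 0.198 and 0.800 in ALAS1/2-KO. Alas1 stood at 83.5 to 280 CPM in WT and 287 to 361 in ALAS1/2-KO, which does not check the loss of 2 exons. Markers of non-parenchymal cells were lowest in ALAS1/2-KO replicate 1: 9 pan-leukocyte genes such as Ptprc summed to 40.3 CPM there, against 129, 217 and 201 in replicates 2, 3 and 4 and 168 to 214 in WT. All 10 hepatocyte markers, among them Hnf4a and Apob, were expressed in every library. Limma called 1 of them, against 5.1% of all genes: Alb, 1.83-fold lower in ALAS1/2-KO (limma adjusted p = 0.00606). Alb did not stand for the list, in which 3 of the 10 log2 fold changes were negative and the median was 0.12. Results below are therefore given with and without ALAS1/2-KO replicate 1.

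Among the B cell receptor genes, Ighm and Cd79a fell in ALAS1/2-KO, while Igkc and Cd79b did not pass the test. Ighm, the constant region of the mu heavy chain (ENSMUSG00000076617.9, chromosome 12, 113418558 to 113422730, mm10, minus strand), was at 11.1, 9.05 and 13.9 CPM in WT replicates 1 to 3. In ALAS1/2-KO replicates 1 to 4 it was at 2.15, 4.74, 4.55 and 4.45 CPM. Each ALAS1/2-KO library lay below each WT library, and replicates 2 to 4 were nearly level with one another. Ighm fell 2.91-fold, a log2 fold change of -1.54 with an SE of 0.29 (limma adjusted p = 0.0290; exact permutation p = 0.0286, the smallest that 35 regroupings allow).

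Cd79a, the signalling chain of the receptor (ENSMUSG00000003379.7, chromosome 7, 24897381 to 24902197, plus strand), was at 1.98, 2.82 and 3.02 CPM in WT, or 38, 71 and 103 reads. In ALAS1/2-KO it was at 0.212, 0.862, 0.703 and 0.495 CPM, or 7, 28, 23 and 15 reads. The groups did not overlap, and no ALAS1/2-KO library reached 1 CPM. Cd79a fell 4.55-fold (log2 fold change -2.18, SE 0.45, limma adjusted p = 0.0335; exact permutation p = 0.0286). It met the filter of 1 CPM in 3 libraries only through the WT group, so its entry into the test is not independent of the direction found.

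Igkc, the constant region of the kappa light chain (ENSMUSG00000076609.2, chromosome 6, 70726435 to 70726966, plus strand), was at 17.3, 24.1 and 28.8 CPM in WT and 3.90, 14.9, 9.60 and 15.9 CPM in ALAS1/2-KO. The groups did not overlap, but replicate 4 of ALAS1/2-KO and replicate 1 of WT lay close together. The difference did not pass (log2 fold change -1.23, SE 0.48, limma adjusted p = 0.182; exact permutation p = 0.0857). Cd79b, the partner chain of Cd79a (ENSMUSG00000040592.11, chromosome 11, 106311341 to 106314762, minus strand), was at 1.20, 1.19 and 2.34 CPM in WT and 0.272, 1.08, 1.01 and 1.02 CPM in ALAS1/2-KO. Here too the groups did not overlap, with 3 of the 4 ALAS1/2-KO libraries just under the lower pair of WT libraries. Cd79b did not pass (log2 fold change -0.93, SE 0.51, limma adjusted p = 0.304; exact permutation p = 0.0857).

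Leaving aside Cd79a for its entry through WT, 1 of the other 3 B cell members, Ighm, was called lower and 0 higher. Of the 12105 genes tested, 5.1% were called in either direction and 2.19% were called lower. These 3 lay lower in ALAS1/2-KO without overlap, as did 11.4% of all genes. Their median log2 fold change was -1.23 (-1.39 with Cd79a) against -0.02 for all genes. Without ALAS1/2-KO replicate 1, Ighm fell 2.42-fold (limma adjusted p = 0.00548) and Cd79a 3.57-fold (0.0123), where 3.41% of genes were called lower. In that fit Igkc had a log2 fold change of -0.80 (0.0923) and Cd79b of -0.51 (0.398). Both calls were lost in several fits that left a library out. The limma adjusted p of Ighm was 0.0904, 0.101 and 0.0787 with WT replicate 1, 2 or 3 left out in turn, and 0.0597 with ALAS1/2-KO replicate 4 left out. Cd79a missed the threshold in the same fits (0.0829, 0.156, 0.0943 and 0.0754), with log2 fold changes no smaller than 1.83 in size in any of the 7 fits without a library.

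**Figure D1:**
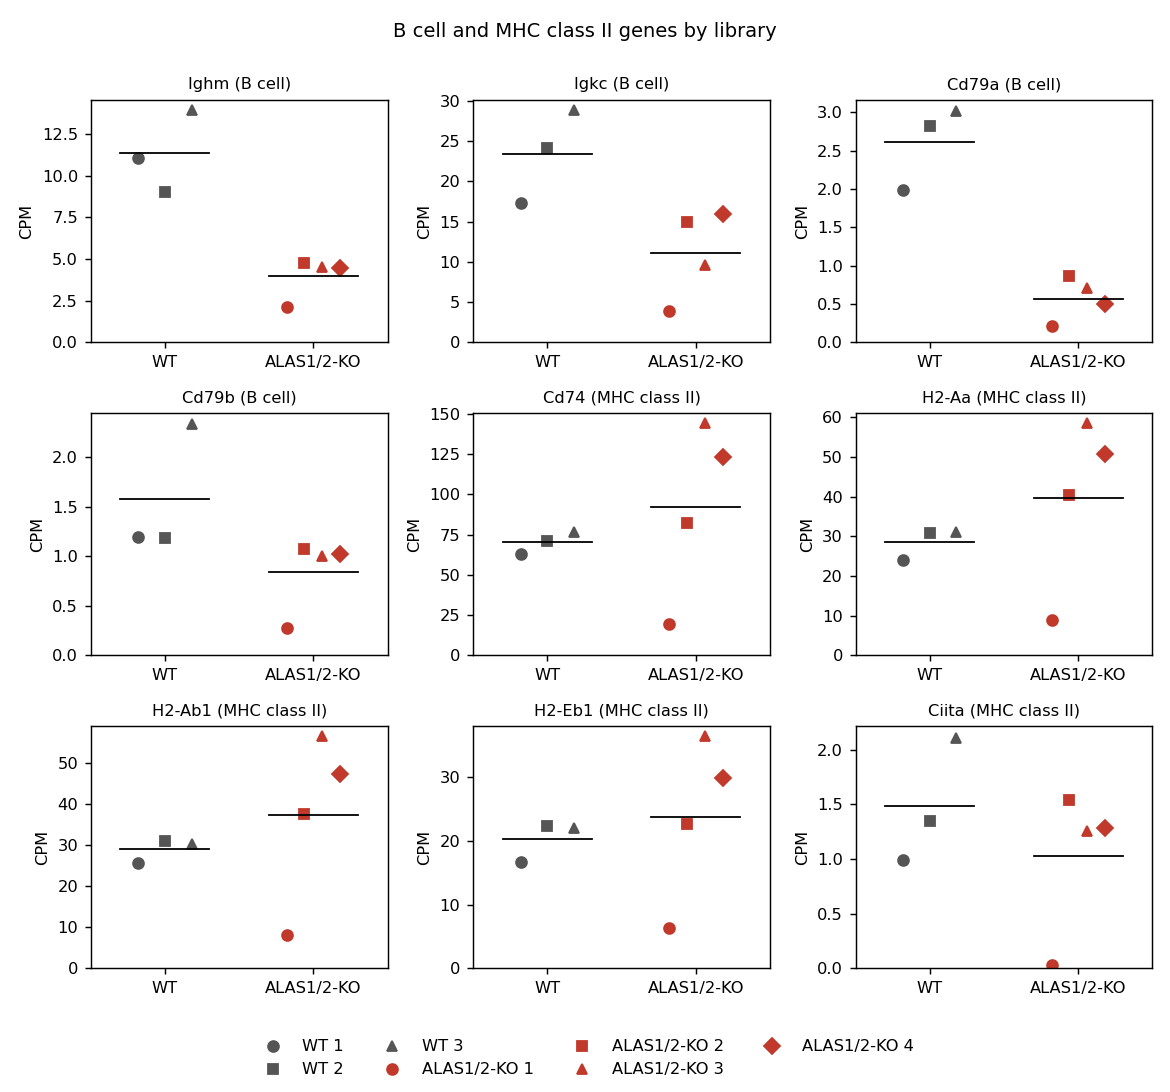
Level of each of the 9 genes in CPM (vertical axes, linear, from 0) in 3 WT (grey) and 4 ALAS1/2-KO (red) libraries, with 1 symbol per library and a bar at the group mean. Ighm, Igkc, Cd79a and Cd79b lie lower in every ALAS1/2-KO library, while Cd74, H2-Aa, H2-Ab1 and H2-Eb1 lie above WT in replicates 2 to 4 and far below it in replicate 1.

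Of 14 other immunoglobulin and plasma cell genes, 5 were tested; limma called 0, and 4 had an unadjusted p under 0.05, against 23.7% of all genes. Limma voom on the recovered reads called Ighd, which encodes the delta heavy chain (adjusted p = 0.0435). The 5 had a median log2 fold change of -1.38, and of -0.94 without ALAS1/2-KO replicate 1. In all libraries 4 of them lay lower in ALAS1/2-KO without overlap, against 11.4% of all genes. Ighd met the filter only through WT, so its entry into the test is not independent of the direction found. It is among the 4 genes in both of these counts. Of the other 4 genes tested, limma called 0, and their median log2 fold change was -1.32. Igha, the heavy chain of mucosal IgA, ran from 16.8 to 24.6 CPM in WT and was at 3.11, 11.9, 8.19 and 12.4 CPM in ALAS1/2-KO (log2 fold change -1.38, limma adjusted p = 0.138). Without ALAS1/2-KO replicate 1 it passed, at -0.94 (adjusted p = 0.0277). Ighd, chosen after its values were seen, was at 2.19, 2.62 and 5.12 CPM in WT and 0.272, 1.45, 0.703 and 0.528 CPM in ALAS1/2-KO (log2 fold change -2.18, limma adjusted p = 0.0522, and 0.0401 without ALAS1/2-KO replicate 1 or 0.0383 without replicate 2). Jchain, which joins IgM and IgA into polymers, had group means of 4.76 ± 0.69 and 2.14 ± 1.06 CPM (SD, n = 3 and 4; limma adjusted p = 0.102).

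Surface and identity genes of B cells gave a more divided picture. Of 21 such genes, 8 were tested, and 7 of these had negative log2 fold changes, with a median of -0.84 and of -0.32 without ALAS1/2-KO replicate 1. The median was -0.75 without 1 gene that met the filter only through WT. The exception was Ly6d, a surface antigen found on B cell precursors and on epithelia, which rose. Its WT mean was 3.81 ± 1.32 CPM and its ALAS1/2-KO mean 11.4 ± 3.12 CPM (SD, n = 3 and 4), a log2 fold change of 1.58 (limma adjusted p = 0.0220). The call on Ly6d was lost when any of 3 libraries was left out: WT replicate 1 (0.0661), its replicate 2 (0.118), and replicate 4 of ALAS1/2-KO (0.0576). Among 12 receptor signalling genes that other leukocytes share, limma called 0 in all libraries, with 1 at an unadjusted p under 0.05. The median log2 fold change of the 12 was -0.34 in all libraries and 0.02 without ALAS1/2-KO replicate 1. The most abundant were Cd81, at 268 and 223 CPM, and Pik3ap1, at 38.1 and 44.6 CPM, in WT and ALAS1/2-KO.

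The MHC class II genes did not pass the test across all libraries, and the ALAS1/2-KO libraries lay on both sides of WT. H2-Aa, the alpha chain of the I-A molecule (ENSMUSG00000036594.15, chromosome 17, 34282744 to 34287823, minus strand), was at 24.0, 30.8 and 31.0 CPM in WT. In ALAS1/2-KO replicates 1 to 4 it was at 8.92, 40.3, 58.5 and 50.6 CPM. Replicate 1 was lower than any WT library and the other 3 were higher than any. The log2 fold change was 0.18 (SE 0.62, limma adjusted p = 0.889; exact permutation p = 0.914).

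H2-Ab1, the beta chain of I-A (ENSMUSG00000073421.6, chromosome 17, 34257689 to 34269419, plus strand), followed the same order, with 25.7, 30.9 and 30.3 CPM in WT and 8.22, 37.5, 56.4 and 47.3 CPM in ALAS1/2-KO. Its log2 fold change was 0.06 (SE 0.63, limma adjusted p = 0.964). H2-Eb1, the beta chain of the I-E molecule (ENSMUSG00000060586.11, chromosome 17, 34305867 to 34316674, plus strand), was at 16.8, 22.3 and 22.0 CPM in WT and 6.32, 22.7, 36.5 and 29.8 CPM in ALAS1/2-KO. ALAS1/2-KO replicate 2 was here almost level with the upper WT libraries, and the log2 fold change was -0.02 (SE 0.57, limma adjusted p = 0.986). Cd74, the invariant chain (ENSMUSG00000024610.15, chromosome 18, 60803848 to 60812652, plus strand), was at 62.9, 71.0 and 77.0 CPM in WT and 19.6, 82.0, 144 and 123 CPM in ALAS1/2-KO (log2 fold change 0.06, SE 0.65, limma adjusted p = 0.965). The signs of these small changes depended on scaling: Cd74 and H2-Ab1 were just below 0 under the scaling that leaves out mitochondrial and the 20 most abundant genes, and H2-Eb1 was at 0.31 with CPM rescaled to listed reads.

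Without ALAS1/2-KO replicate 1, the 4 class II genes lay above every WT library without overlap, as did 13.9% of all genes. In that fit H2-Aa rose 1.73-fold (log2 fold change 0.79, SE 0.16, limma adjusted p = 0.0261) and H2-Ab1 1.61-fold (0.68, SE 0.16, adjusted p = 0.0377), where 3.21% of genes were called higher. Cd74, at 1.62-fold, and H2-Eb1, at 1.44-fold, did not pass (limma adjusted p = 0.0800 and 0.141). With ALAS1/2-KO replicates 1 and 2 both left out, the 4 genes were called higher, against 4.67% of all genes called higher and 9.33% called in either direction, with log2 fold changes of 0.93 for Cd74, 0.94 for H2-Aa, 0.84 for H2-Ab1 and 0.71 for H2-Eb1 (limma adjusted p = 0.00382, 0.00474, 0.00562 and 0.0241). Leaving out replicate 1 also under the scaling without abundant genes kept H2-Aa past the threshold (0.0476) and not H2-Ab1 (0.0698). With CPM rescaled to listed reads and without replicate 1, the 4 genes were called higher. Limma adjusted p was 0.0173 for Cd74, 0.00578 for H2-Aa, 0.00742 for H2-Ab1 and 0.0287 for H2-Eb1. That fit called 1642 genes higher, and the median log2 fold change of all genes in it was 0.30. Leaving out each single library was planned, but the fit without replicates 1 and 2 and those that combine a library with another scaling were chosen after seeing the data. None of them replaces the comparison of all 7 libraries.

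Ciita, the coactivator of class II genes (ENSMUSG00000022504.10, chromosome 16, 10480059 to 10528418, plus strand), was at 0.992, 1.35 and 2.11 CPM in WT. In ALAS1/2-KO replicates 2 to 4 it was at 1.54, 1.25 and 1.29 CPM, within the WT range. Replicate 1 held 1 read, or 0.0302 CPM, against 39 to 50 reads in the other 3. The log2 fold change of -1.03 (SE 0.98, limma adjusted p = 0.563) rested on that library and was -0.06 without it (adjusted p = 0.935). Unlike its target genes, Ciita thus did not lie above WT in replicates 2 to 4, although the difference between Ciita and those genes was not tested.

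**Figure D2:**
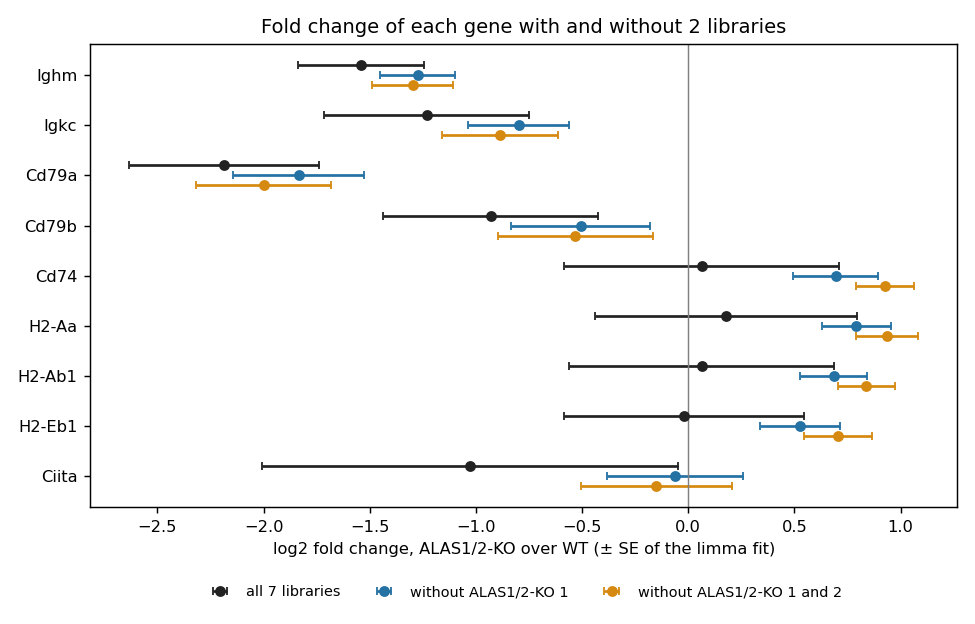
Log2 fold change of ALAS1/2-KO over WT for each gene (horizontal axis, points with SE of the limma fit) over all 7 libraries, without ALAS1/2-KO replicate 1, and without ALAS1/2-KO replicates 1 and 2. The 4 B cell genes stay below 0 in each fit, while Cd74, H2-Aa, H2-Ab1 and H2-Eb1 move from near 0 to between 0.53 and 0.79 and then to between 0.71 and 0.94.

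Of 13 genes of peptide loading and turnover, 10 were tested, and limma and limma voom called 0. Of the 10, 2 had an unadjusted p under 0.05, against 23.7% of all genes. The median log2 fold change was -0.34 (-0.22 without 2 genes that met the filter only through WT). It was 0.01 without ALAS1/2-KO replicate 1. As log2 of the ratio to the WT mean, the summed level of the 10 genes was -0.30, 0.22, 0.40 and 0.39 in ALAS1/2-KO replicates 1 to 4. That of Cd74, H2-Aa, H2-Ab1 and H2-Eb1 was -1.78, 0.30, 1.00 and 0.76. Both sums were thus below the WT mean in replicate 1 and above it in the other 3, and the difference between the lists was not tested. The peptide loading sum was led by Ctsl, with WT means of 370 CPM for Ctsl and 697 CPM for the sum. Ctsl was at 435 to 563 CPM in ALAS1/2-KO and 355 to 399 CPM in WT. In ALAS1/2-KO replicate 2 Ctsl held 563 of 812 CPM, so the rise of the sum there does not stand for the other genes. H2-DMa and H2-DMb1 were chosen for their role after their values were seen. H2-DMa, a chain of the DM molecule that exchanges the invariant chain fragment for peptide, was at 8.35, 6.19 and 7.47 CPM in WT and 1.63, 6.06, 8.34 and 7.85 CPM in ALAS1/2-KO. Its partner H2-DMb1 was at 4.70, 5.44 and 6.76 CPM and at 0.968, 3.88, 6.63 and 6.83 CPM. Neither passed (limma adjusted p = 0.605 and 0.610), and without ALAS1/2-KO replicate 1 both log2 fold changes were 0.01. Ctsl and Lgmn, proteases that also act in hepatocytes or macrophages, were the most abundant of the list, at 370 ± 24.8 and 492 ± 53.2 CPM and at 125 ± 16.7 and 106 ± 54.6 CPM (SD, n = 3 and 4).

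Of the 10 factors that bind or act at class II promoters, limma and limma voom called 0, with 1 at an unadjusted p under 0.05. Nfyb and Rfx5 were picked after their values were seen. The largest log2 fold change in size over this list was that of Nfyb, a subunit of the CCAAT-binding factor, at 16.2 ± 2.19 and 11.8 ± 0.69 CPM (SD, n = 3 and 4; log2 fold change -0.44, limma adjusted p = 0.0759). Rfx5, a subunit of the factor that binds the X box, was at 7.93 ± 1.57 and 9.68 ± 1.03 CPM (adjusted p = 0.286). Of 10 genes of the interferon gamma pathway, the classical inducer of Ciita, 8 were tested and limma and limma voom called 0, with 0 at an unadjusted p under 0.05. Their summed level was 191 to 218 CPM in WT, 206 to 207 in ALAS1/2-KO replicates 2 to 4 and 158 in replicate 1.

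Markers of cells that could carry this RNA moved with it in part, as the plot of summed levels shows. The Kupffer cell list, 15 of 15 genes tested and led by Cd5l and Clec4f, summed to 1227 to 1667 CPM in WT and to 359, 959, 2004 and 1845 CPM in ALAS1/2-KO replicates 1 to 4, with 0 genes called by either limma or limma voom and 0 genes with an unadjusted p under 0.05. Dendritic cell markers, 8 of 13 tested, summed to 34.8 to 39.8 CPM in WT and 8.50, 19.5, 32.0 and 26.3 CPM in ALAS1/2-KO. Of the 8, Siglech and Clec10a met the filter only through WT. Limma called 1 of the other 6, against 5.1% of all genes. This was Fscn1, an actin-bundling protein of mature dendritic cells and other cells, which fell 4.50-fold (adjusted p = 0.0377). The 3 WT libraries averaged 8.97 ± 0.70 CPM and the 4 ALAS1/2-KO libraries 2.22 ± 1.21 CPM (mean ± SD). Leaving out any 1 WT library gave 0.107, 0.154 and 0.0969 for replicates 1 to 3, and leaving out ALAS1/2-KO replicate 2 gave 0.0710 and replicate 4 gave 0.0871. T and NK cell markers, 3 of 16 tested, summed to 2.51 to 6.96 CPM over all libraries.

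Of the erythroid list, which marks red cells, 1 of 4 genes tested was called, against 5.1% of all genes. The 4 summed to 21.5, 41.3 and 11.3 CPM in WT and 3.57, 6.52, 2.75 and 7.39 CPM in ALAS1/2-KO. Hbb-bt, a beta globin, passed (log2 fold change -2.46, limma adjusted p = 0.0483), but not by limma voom (0.0561), and it passed in only 1 of the 7 fits that left a library out, that without ALAS1/2-KO replicate 1. Hbb-bt and 2 others of the 4 genes met the filter only through WT, reaching 1 CPM in fewer than 3 ALAS1/2-KO libraries. The call on Hbb-bt is thus not independent of the filter, and the 1 remaining gene was not called. Neutrophil markers, 3 of 11 tested, summed to 12.7 to 17.5 CPM in WT and 3.60 to 13.0 CPM in ALAS1/2-KO. The sinusoidal endothelial and stellate cell lists had median log2 fold changes of -0.98 and -1.41, and -0.52 and -0.96 without ALAS1/2-KO replicate 1. The cholangiocyte list, 3 of 7 genes tested, had a median of -0.23, and limma called 1 of the 3, against 5.1% of all genes. That gene, Spp1, fell 6.65-fold (limma adjusted p = 0.00760, and 0.0535 without WT replicate 2). The part of any of these cell types in the B cell and class II results was not tested.

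**Figure D3:**
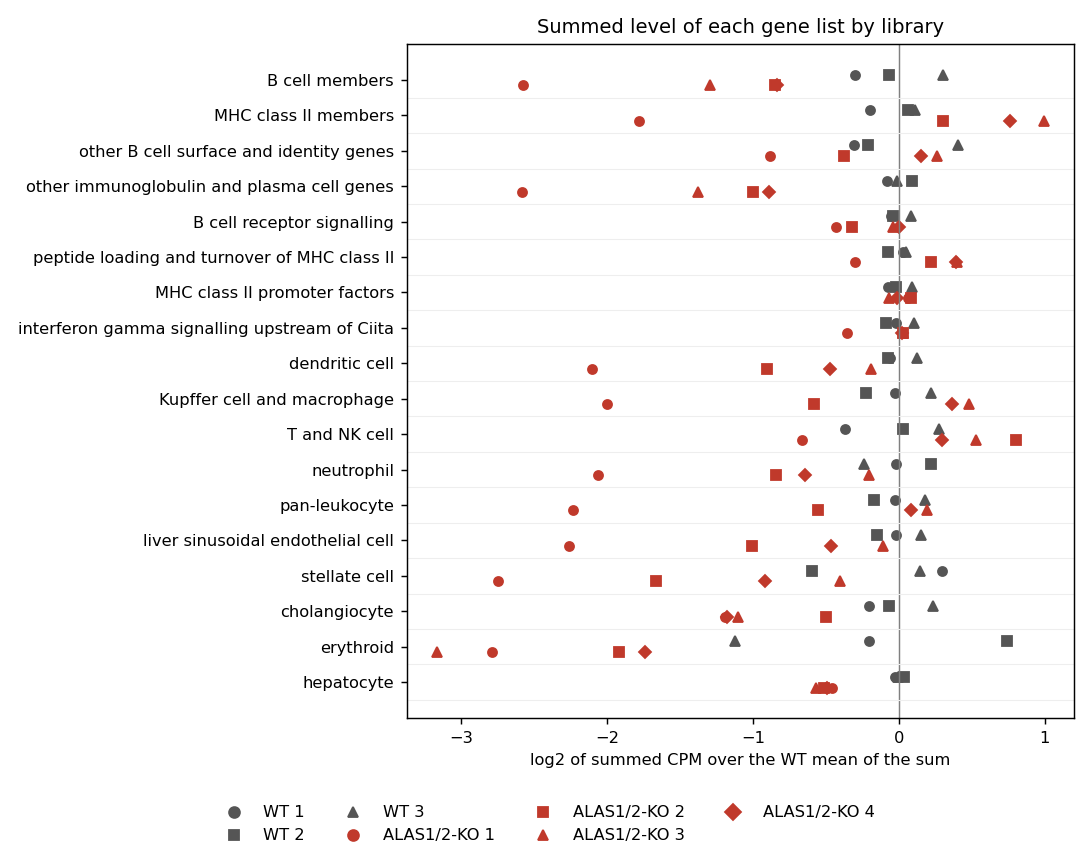
Summed CPM of each gene list in each library as log2 of its ratio to the WT mean (horizontal axis), with WT in grey and ALAS1/2-KO in red and 1 symbol per library. ALAS1/2-KO replicate 1 is the lowest library for every list shown but the promoter factors, erythroid and hepatocyte lists. The B cell members lie below 0 in all 4 ALAS1/2-KO libraries while the class II members lie above 0 in 3. The hepatocyte sum is mostly Alb (WT means of 97897 CPM for Alb and 134437 CPM for the sum). The peptide loading sum is led by Ctsl (WT means of 370 CPM for Ctsl and 697 CPM for the sum). The surface and identity sum holds Ly6d, at a WT mean of 3.81 CPM and 15.5 and 11.8 CPM in ALAS1/2-KO replicates 3 and 4. The other 7 genes of that sum had negative log2 fold changes.

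Set against the pan-leukocyte sum of the same library, the B cell and class II genes parted. In ALAS1/2-KO replicates 1 to 4 that sum was at 21.3, 68.0, 114 and 106% of its WT mean. The Kupffer cell sum was at 25.0, 66.9, 140 and 129% of its own. Which cells make up the pan-leukocyte sum was not tested, so the ratios are not shares of leukocytes. The summed CPM of Ighm, Igkc, Cd79a and Cd79b was 0.170, 0.221 and 0.224 times the pan-leukocyte sum in WT and 0.162, 0.168, 0.0731 and 0.109 times in ALAS1/2-KO. Replicates 1 and 2 of ALAS1/2-KO were thus close to WT replicate 1 on this scale, and replicates 3 and 4 were well below. The summed CPM of Cd74, H2-Aa, H2-Ab1 and H2-Eb1 was 0.697, 0.921 and 0.748 times the pan-leukocyte sum in WT and 1.07, 1.42, 1.36 and 1.25 times in ALAS1/2-KO, with replicate 1 also above WT. Against the Kupffer cell sum the class II ratio was 0.0920, 0.126 and 0.0961 in WT and 0.120, 0.190, 0.148 and 0.136 in ALAS1/2-KO, with replicate 1 inside the WT range. These ratios are sums over chosen genes and are given with no test.

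**Figure D4:**
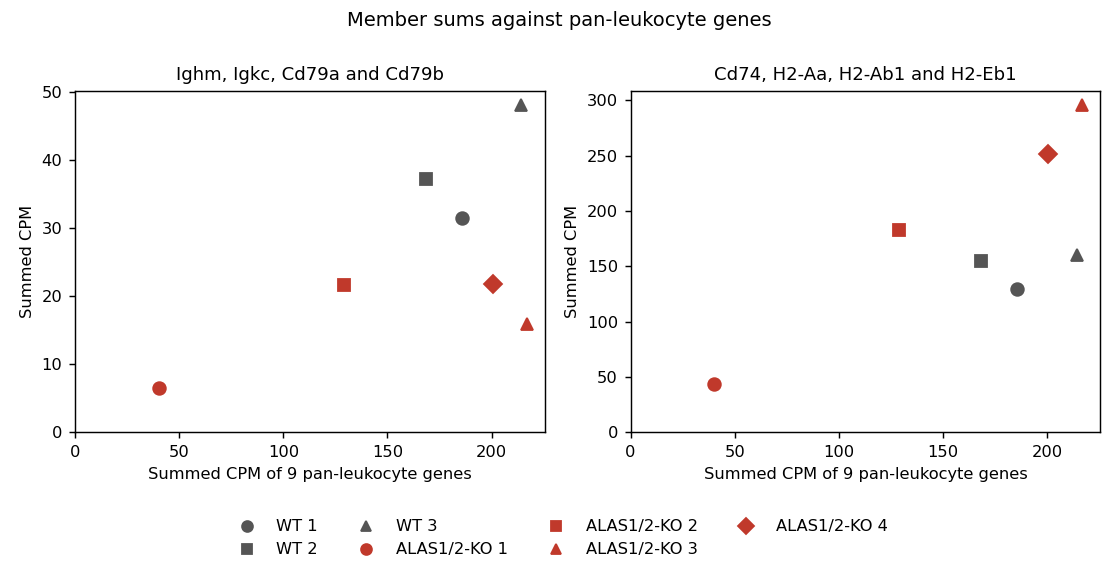
Summed CPM of the 4 B cell genes (left) and of 4 MHC class II genes (right) against the summed CPM of 9 pan-leukocyte genes, 1 symbol per library, linear axes from 0. ALAS1/2-KO replicates 3 and 4 hold 217 and 201 CPM of leukocyte genes, near WT, but 15.9 and 21.9 CPM of the B cell genes, where WT has 31.6 to 48.1, and 296 and 251 CPM of the class II genes, where WT has 129 to 160.

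The genes whose centred log2 CPM differed least from the mean of each set over the 7 libraries were listed among 8783 others with a mean of at least 5 CPM. For the B cell genes these were Gatm, an enzyme of creatine synthesis (root mean square difference 0.19 on the log2 scale), Gimap6, a GTPase of lymphocytes (0.21), Il1b (0.22), Phldb1 (0.24) and Tagln2 (0.25), where the 4 members themselves ran from 0.19 to 0.40. For the class II genes they were Fcgr4, an Fc receptor of myeloid cells (0.22), Epsti1 (0.23), Fgl2 (0.24), Fermt3, an integrin activator of blood cells (0.25), and Ifi213 (0.25). The 4 class II members differed from their own mean by 0.04 to 0.09. In both sets each member enters the mean it is set against, which makes its difference smaller. Members and other genes were therefore not compared on equal terms.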

How the data were processed

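Libraries were made from 1 µg of Trizol-extracted RNA with version 2 of the TruSeq RNA kit, per the labels' protocols. Cutadapt, HISAT2 and the mm10 build are named in the submitters' processing notes. For the counter, annotation, strand handling and normalizing software, nothing is stated: not given in the sources used here. The authors deposited log2 CPM with a small prior for 12151 genes, and each gene reached 0.5 CPM in 3 or more libraries. Taking values off the log2 scale and subtracting the floor of 0.0676 CPM gave whole multiples of a step in each library (within 0.01 reads for at least 99.99% of values), hence reads and depth.

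The test was limma 3.58.1 (R 4.3.3) on the deposited values of the 12105 genes with at least 1 CPM in 3 libraries, with trend and robust moderation, two-sided, and Benjamini-Hochberg adjustment over all genes tested. An adjusted p under 0.05 counted as called. Fold changes carry the prior, which understates changes of low genes. Exact permutation tests on log2 CPM used all 35 regroupings and were run for each of the 9 genes. The procedure was also run on simulated libraries, in which noise was drawn independently for each gene. They held no shift across a whole library, so that run does not bear on ALAS1/2-KO replicate 1. Nothing in the labels says that replicates were separate animals, and the p-values then reflect only variation among these samples, which may be technical. Alternatives were 2 pseudocounts, 2 filters, 2 scalings, limma voom, no trend, a block on replicate number, and each library left out in turn. Another 3 were chosen after seeing the data: leaving out ALAS1/2-KO replicates 1 and 2 together, and leaving out replicate 1 under each other scaling.

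The members and lists were chosen with earlier results of these data known. Named were all members, up to 3 called genes of each of 16 lists (or the 2 most abundant where none was called, given for the lists that bear on the members), and the 5 genes most like each set. Reads of immunoglobulin constant regions and of the H2 family may be shared between near-identical genes, and overlapping genes cannot be told apart. Positions are from GENCODE M21 (mm10).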

Additional observations from a re-analysis of the deposited data

Results flagged for a closer look

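In the 4 ALAS1/2-KO libraries, 1 value stood far from the other 3 on the log2 scale in 5 of the 27 genes and summed lists examined. For a single gene or list, chance alone gives such a pattern about 1 time in 20. The 27 share the same 4 libraries, and some sums hold member genes, so they are not independent. The count of 5 therefore does not measure an excess over chance. For Ighm the lone value was 2.15 CPM, for Cd79b 0.272 CPM and for Ciita 0.0302 CPM, each in replicate 1. The summed interferon gamma list was lone in the same replicate, at 158 CPM. The summed cholangiocyte list was lone in replicate 2, at 19.8 CPM, where the other 3 held 12.2 to 13.0 CPM.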

How the results depend on the processing

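Over 19 alternatives, Ighm, Igkc, Cd79a and Cd79b were lower in ALAS1/2-KO in every fit that tested them, and Cd79a and Cd79b were not tested with at least 5 CPM in 3 libraries. The 617 genes called over all genes became 2739 with CPM rescaled to listed reads (median of all genes 0.32), 306 without trend, 100 to 802 when 1 library was left out, 1130 without ALAS1/2-KO replicates 1 and 2 together and 1885 with CPM rescaled to listed reads and without replicate 1. Higher calls made up 352 of 617, against 2537 of 2739 with CPM rescaled to listed reads and 238 of 564 with scaling without abundant and mitochondrial genes. The 2 members called became 1 with the 5 CPM filter and 1 without trend, where Ighm was at an adjusted p = 0.0527, 0 to 4 when 1 library was left out, and 6 both without ALAS1/2-KO replicates 1 and 2 and with rescaling and without replicate 1. Same-numbered libraries did not deviate together (correlations over genes -0.03, 0.05 and 0.18), so numbers were not taken as pairs. With the replicate block, which leaves ALAS1/2-KO replicate 4 without weight, 72 genes and 0 members were called, and Cd74, H2-Aa and H2-Ab1 had log2 fold changes of -0.19, -0.041 and -0.15. Scaling without abundant and mitochondrial genes put Cd74 at -0.00083 and H2-Ab1 at -0.00039. H2-Eb1 was at 0.31 with CPM rescaled to listed reads, 0.71 without ALAS1/2-KO replicates 1 and 2, and, without replicate 1, 0.83 with rescaling to listed reads and 0.47 with the other scaling. Ciita was at 0.22 with rescaling and without replicate 1. Leaving out 1 library gave -0.26 to 0.69 for Cd74, -0.11 to 0.79 for H2-Aa, -0.24 to 0.68 for H2-Ab1 and -0.31 to 0.53 for H2-Eb1; in each case the highest value was without ALAS1/2-KO replicate 1. Beyond what fewer samples or genes give, the cause was not tested. Depth limits Ciita, Cd79a and Cd79b, with 1 to 103 reads per library.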

Other observations

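Ratios of reads between genes of a pathway, uncorrected for gene length and followed from library to library, were steadier for some pairs than for others. The ratio of Cd74 to H2-Ab1 averaged 2.43 ± 0.12 over 3 WT libraries and 2.43 ± 0.19 over 4 ALAS1/2-KO libraries (mean ± SD, also below). H2-Aa to H2-Ab1 stood at 0.986 ± 0.046 and 1.07 ± 0.021, slightly higher in ALAS1/2-KO without overlap. The ratio of H2-DMa to H2-Ab1 was 0.257 ± 0.063 and 0.169 ± 0.021, and that of H2-DMb1 to H2-Ab1 was 0.194 ± 0.026 and 0.121 ± 0.017. For both ratios the ALAS1/2-KO libraries lay below the lowest WT library. For H2-DMa the margin was very small, at 0.199 in ALAS1/2-KO replicate 1 and 0.201 in WT replicate 2. Cd79b to Cd79a was at 0.605, 0.423 and 0.777 in WT and 1.29, 1.25, 1.43 and 2.07 in ALAS1/2-KO. The ALAS1/2-KO ratios rest on few reads, 7 to 28 per library for Cd79a and 9 to 35 for Cd79b. Cd79a met the filter only through WT, where it is high, so this ratio is not independent of that entry. Igkc to Ighm overlapped between the groups, at 1.57 to 2.67 and 1.82 to 3.57. These ratios were picked after the values were seen and were given no test.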
